A study of Mus musculus with 6 samples.

Results

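Neurotensin, neuromedin S, the tachykinin precursor, cholecystokinin and thyrotropin-releasing hormone (TRH) are neuropeptides, and 9 genes for them and their receptors were examined in RNA bound to phosphorylated ribosomes of the preoptic region. The 9 were chosen by symbol: the ligand genes Nts, Nms, Tac1, Cck and Trh, the receptor genes Ntsr1, Tacr1 and Cckbr, and Sort1, the gene of the sorting receptor sortilin. All 9 stood among the 13724 gene entries of the deposited table, and all 9 were among the 12328 entries with at least 1 RPKM (reads scaled by gene length and by the mapped reads of the library) in 3 or more of the 6 libraries, which were the entries tested. Wild type C57Bl6/J mice went through 3 numbered warm challenges, and the anterior hypothalamus was dissected from 0.5 mm brain sections. Each challenge gave 1 library of total RNA (input) and 1 of RNA precipitated with an antibody against ribosomal protein S6 phosphorylated at sites 244 and 247 (immunoprecipitate, IP), so that there were 3 inputs and 3 IPs. Every group was warm-challenged and there was no group at another temperature, so the part of warmth in an IP value was not tested. The number of animals behind each library, their age and the temperature were not stated in the labels, and p-values measure the spread between these libraries.

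Neuropeptides are cut from larger precursors, stored in dense-core vesicles and released on strong firing to act on G protein-coupled receptors. Neurotensin given into the brain lowers body temperature in rodents, and TRH promotes heat production. Neuromedin S is known from the suprachiasmatic nucleus, the circadian clock of the anterior hypothalamus, and shares its receptors with neuromedin U. Phosphorylation of S6 follows neuronal activity, and its precipitation enriches transcripts of the cells that carry it.

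Of the 9 genes, Nms was higher in IP at an adjusted p under 0.05, none was lower, and 8 did not pass. With the warm challenge as a block in the fit, Nts was also higher, which made 2. Over all tested entries 0.892% were called higher in IP and 3.29% lower, and 1.33% and 3.99% with the block. Nms and Nts were also the members whose IP libraries all lay above all inputs, which held for 6.85% of all tested entries, while 23.5% had all IP libraries below all inputs and no member did. The median log2 fold was -0.17 over the 9 members and -0.18 over all tested entries. Median scaling of the libraries moved the latter to -0.01 and the counts of higher and lower entries from 110 and 406 to 114 and 103, and quantile normalization gave 129 and 124.

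The sequences upstream of Nms and Nts are shown because these were the 2 members above all inputs in every IP library. RefSeq (GRCm38.p6) held a promoter for 8 of the 9 members. Each window is the 250 bases before the start of the gene, 5′ to 3′ on the strand of the gene, with the match to the AP-1 motif in capitals. AP-1 is the dimer of Fos and Jun proteins. The Nms window is chr1:38938899-38939148 on the plus strand, and the Nts window is chr10:102490419-102490668 on the minus strand.
Nms: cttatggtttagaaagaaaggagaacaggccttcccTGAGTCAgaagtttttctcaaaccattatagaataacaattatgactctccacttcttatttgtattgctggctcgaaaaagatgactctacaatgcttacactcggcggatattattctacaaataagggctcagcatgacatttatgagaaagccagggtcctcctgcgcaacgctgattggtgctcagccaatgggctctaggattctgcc
Nts: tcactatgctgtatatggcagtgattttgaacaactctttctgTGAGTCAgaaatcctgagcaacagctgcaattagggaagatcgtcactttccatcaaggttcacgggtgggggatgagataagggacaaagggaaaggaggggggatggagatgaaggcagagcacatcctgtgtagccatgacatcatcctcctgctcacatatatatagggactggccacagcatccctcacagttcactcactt

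The AP-1 motif was searched as TGANTCA, which reads the same on both strands apart from its middle base. It matched 1 time in Nms, beginning 214 bases before the start, and 1 time in Nts, beginning 207 bases before it, and both matches read TGAGTCA. None of the other members with a promoter held it, so that 2 of 8 did, against 6.75% of the 32851 promoters in the table. Nmur2, the gene of the brain receptor of neuromedin S and not a member, also had all IPs above all inputs. Its window held 0 AP-1 matches. The full cAMP response element, TGACGTCA, was in 0 of 8 members and in 1.55% of all promoters. Its shorter form TGACG, which lies inside the full element, was searched on both strands and stood in 6 of 8 members (Nts, Ntsr1, Tac1, Tacr1, Cck and Trh) and in 17.8% of all promoters. A match describes the letters in the window and is no evidence of binding.

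Libraries fell into 2 fractions with exceptions that touch these genes. The first principal component (43.2% of the variance) separated inputs from IPs, and the next (26.0%) placed IP 1 at -49.0 and the remaining 5 libraries between -10.0 and 19.9. Summed RPKM lay between 374708 and 496125 per library. Of 10 genes of recently active neurons such as Fos and Fosb, 8 were higher in IP and 0 lower (3 higher without any 1 of the inputs), and their summed level was 68.0 to 84.9 RPKM in inputs and 305.5 to 440.7 in IPs. Pan-neuronal markers were abundant (5 of 6 listed, 3478 to 4832 RPKM summed in inputs and 2656 to 6135 in IPs), while Rbfox3 was not listed. Oligodendrocyte markers were present in inputs (8 of 8 listed, 920 to 1040 RPKM) and lower in IPs (274 to 330 RPKM, 7 of 8 called lower, and 3 to 5 of 8 without any 1 library other than IP 1). Of 4 red blood cell genes, the 3 tested (Hbb-b1, Hba-a1 and Hba-a2) were higher in IP, while Alas2 did not reach the filter and its groups overlapped. The 4 summed to 14.1 to 50.3 RPKM in inputs and 202 to 567 in IPs, and the 3 calls became 0 without input 2 or input 3 and 1 without input 1, IP 2 or IP 3. These differences compare precipitated RNA with total RNA of the same challenges and do not measure how many cells of a type were present. Their cause was not tested. Between challenges, fewer cells of a type and less RNA per cell cannot be told apart in bulk libraries.

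**Figure D1:**
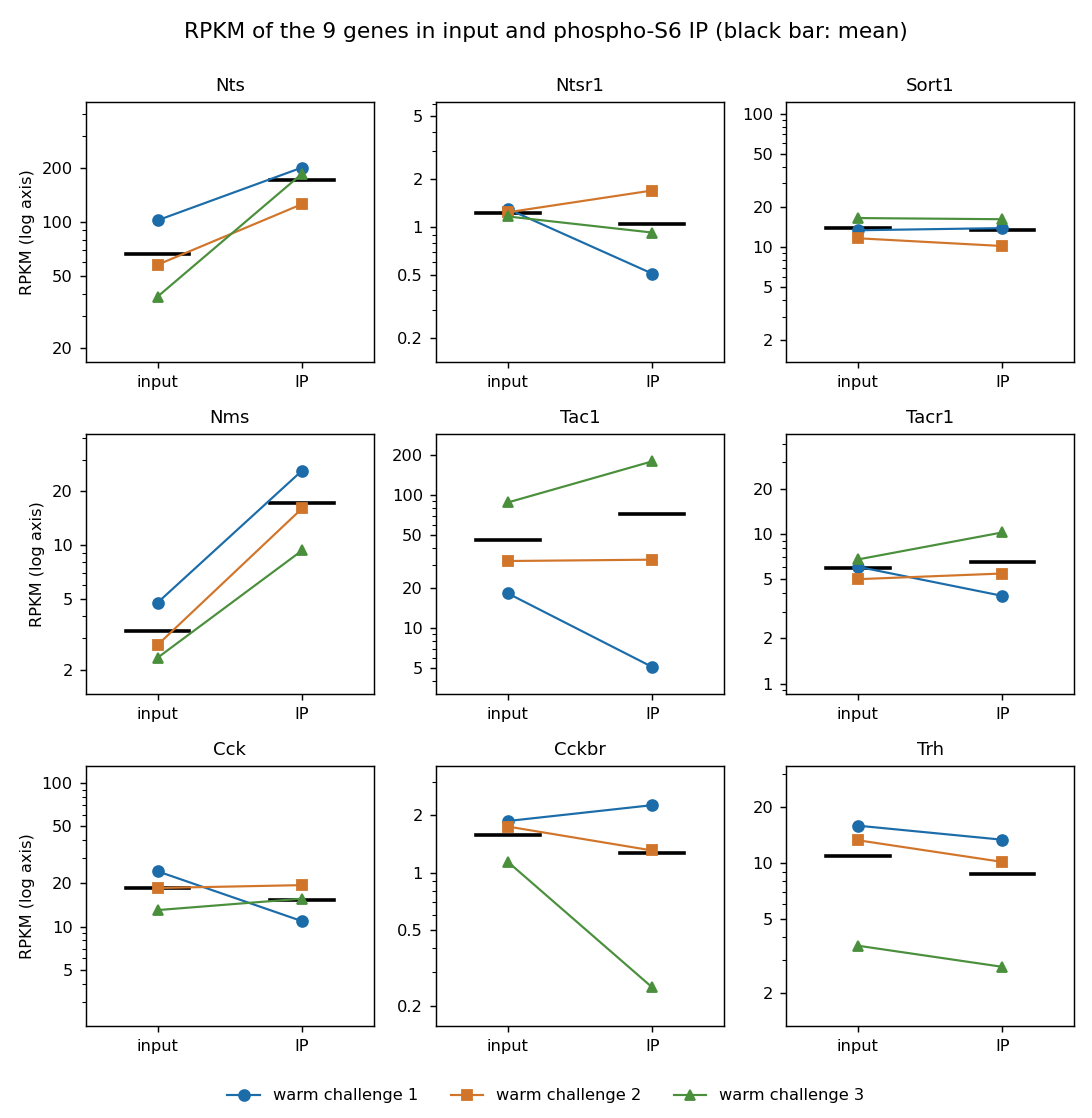
RPKM of each of the 9 genes (log axis, one scale per panel) in input and IP, with 1 line per warm challenge and a black bar at the mean of 3 libraries. Nms and Nts are higher in IP along all 3 lines, while Tac1 is lower in IP in challenge 1 and higher in challenge 3.

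Neuromedin S had the largest log2 fold of the 9 genes. Nms stood at 4.77, 2.76 and 2.34 RPKM in inputs 1, 2 and 3 and at 26.2, 16.1 and 9.34 RPKM in IPs 1, 2 and 3. The lowest IP was above the highest input, and challenge 1 was highest and challenge 3 lowest in both fractions. The input mean was 3.29 ± 1.30 RPKM and the IP mean 17.2 ± 8.47 RPKM (SD, n = 3 each). The log2 fold was 2.02 on the log2(RPKM + 1) scale (SE 0.36, limma, adjusted p = 0.0266). Within challenges 1, 2 and 3 the IP level was 5.49, 5.81 and 3.99 times the input level. By mean RPKM, Nms moved from percentile 27.3 of all entries in input to percentile 69.9 in IP. Its call ended without input 1, input 2, input 3 or IP 2 (adjusted p = 0.0739 to 0.114) and held without IP 1 (log2 fold 1.67, adjusted p = 0.0187) and without IP 3 (adjusted p = 0.0281).

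The gene of the brain receptor of neuromedin S was higher in IP as well. Nmur2 stood at 1.03, 1.12 and 0.931 RPKM in inputs 1, 2 and 3 and at 16.2, 3.71 and 3.96 RPKM in IPs 1, 2 and 3. All IPs were above all inputs, as for 6.85% of all tested entries, and IP 1 stood far above the other 2. Input 3 lay below 1 RPKM, so Nmur2 met the filter of 1 RPKM in 3 or more libraries only with its IPs. Its call is therefore not independent of that filter. The log2 fold was 1.87 (SE 0.44, limma, adjusted p = 0.0496). This call lay close to the threshold: it held without IP 1 (log2 fold 1.25, adjusted p = 0.0131) and ended without any other 1 library (adjusted p = 0.0709 to 0.171) and after median scaling (adjusted p = 0.0557). It also ended with a pseudocount of 5 RPKM (log2 fold 0.97, adjusted p = 0.0883), with no filter (adjusted p = 0.0570), without the variance trend (adjusted p = 0.0538) and with robust empirical Bayes (adjusted p = 0.0502). Nms exceeded Nmur2 by 2.47 to 4.62 times within inputs and by 1.61 to 4.33 times within IPs, ranges that overlap. Nmu, the gene of neuromedin U, which acts on the same receptors, stood at 6.65, 2.34 and 0.867 RPKM in inputs 1, 2 and 3 and at 2.62, 1.84 and 0.817 RPKM in IPs 1, 2 and 3 (log2 fold -0.45, SE 0.47, adjusted p = 0.602). The receptor gene Nmur1 was not listed.

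Because Nms is known from the suprachiasmatic nucleus, 10 marker genes of that nucleus were examined. All 10 were listed, 8 were tested, 1 was higher in IP and 0 were lower, against 0.892% and 3.29% of all tested entries. The median log2 fold was 0.15 over the 8 tested and -0.17 over all 10 with no filter. The defining peptide genes were low: Vip lay between 0.143 and 1.22 RPKM in inputs and between 0.250 and 0.499 in IPs, and Avp, which is also made outside this nucleus, between 0.289 and 5.33 in inputs and between 0.109 and 2.21 in IPs. Six6, a transcription factor of the nucleus, did not exceed 0.927 RPKM in any library. Vip and Six6 did not reach the filter for testing. Rorb, a nuclear receptor of the clock and of other neurons, was the member that rose, from an input mean of 11.0 ± 1.10 to an IP mean of 33.1 ± 10.4 RPKM (SD, n = 3 each; log2 fold 1.47, SE 0.25, limma, adjusted p = 0.0236). Its call ended without input 1, 2 or 3 or IP 2 (adjusted p = 0.0555 to 0.117). Rgs16, a regulator of G protein signalling, stood at 5.57 ± 1.35 and 13.2 ± 4.90 RPKM, with an adjusted p = 0.0684 that became 0.0372 once the challenge was blocked. Rorb, Rgs16 and Lhx1 had all IPs above all inputs, as had 6.85% of all tested entries. Lhx1 differed by 0.61 on the log2 scale (adjusted p = 0.128) and Gpr176 by 0.46 (adjusted p = 0.362). The other 4 tested markers had folds below 0, none of them called: Avp was at -1.15 (adjusted p = 0.283), Prokr2 at -0.55 (0.209), Prok2 at -0.17 (0.756) and Grp at -0.16 (0.813). The part of suprachiasmatic tissue in the Nms values was not tested.

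**Figure D2:**
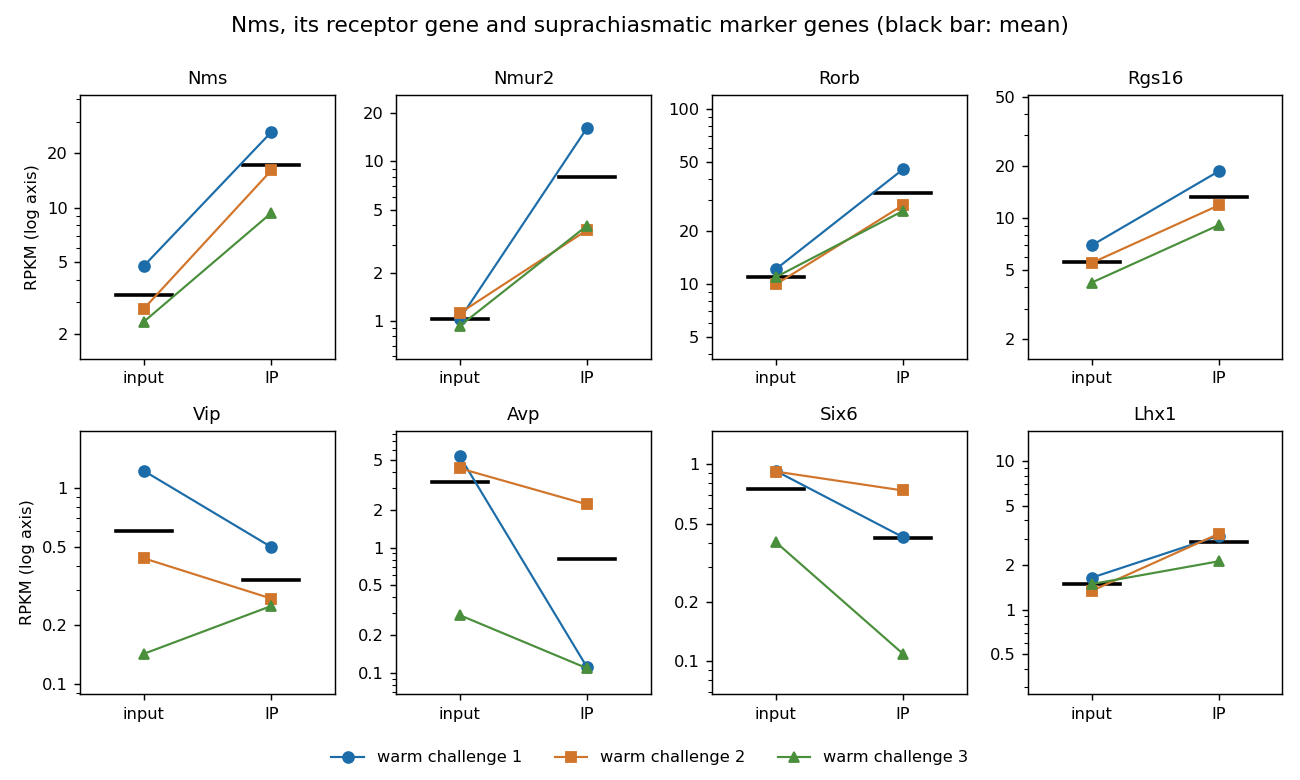
RPKM (log axis, one scale per panel) of Nms, Nmur2 and 6 suprachiasmatic marker genes in input and IP, with 1 line per warm challenge and black bars at the means. Nms, Nmur2, Rorb, Rgs16 and Lhx1 are higher in all 3 IPs than in any input, while Vip and Six6 stay at or under 1.22 RPKM.

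Neurotensin was the most abundant of the 9 transcripts by mean RPKM in both fractions. In input 3, however, Tac1 (88.1 RPKM) lay above Nts (38.6 RPKM), and in IP 3 the values were close (179 and 186 RPKM). Nts stood at 102, 58.0 and 38.6 RPKM in inputs 1, 2 and 3 and at 201, 126 and 186 RPKM in IPs 1, 2 and 3. The lowest IP (IP 2) was above the highest input (input 1). The means were 66.3 ± 32.6 and 171 ± 39.6 RPKM (SD, n = 3 each), at percentiles 91.1 and 96.8 of all entries. The log2 fold was 1.44 (SE 0.36, limma), with an adjusted p = 0.0583 without the block and 0.0467 with it. The IP level was 1.96, 2.17 and 4.81 times the input level in challenges 1, 2 and 3, so challenge 3, with the lowest input, had the largest ratio. Over the omissions of 1 library the fold lay between 1.11 (without input 3) and 1.80 (without input 1), with an adjusted p = 0.0608 to 0.194 in fits without the block.

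The receptor genes of neurotensin did not follow the peptide. Ntsr1, the high-affinity G protein-coupled receptor, was near the lower end of the table, at 1.30, 1.24 and 1.17 RPKM in inputs 1, 2 and 3 and at 0.511, 1.70 and 0.926 RPKM in IPs 1, 2 and 3. The groups overlapped and the log2 fold was -0.17 (SE 0.25, adjusted p = 0.720), which median scaling brought to 0.0045 and quantile normalization to 0.16. Ntsr2, a receptor gene known for expression in astrocytes, stood at 20.3, 12.5 and 17.6 RPKM in inputs 1, 2 and 3 and at 10.1, 5.01 and 5.15 RPKM in IPs 1, 2 and 3. All of its IPs lay below all inputs, as for 23.5% of all tested entries. The log2 fold of Ntsr2 was -1.23 (SE 0.30), with an adjusted p = 0.0517 (0.0352 in the blocked fit). Without IP 1 it was called lower in the fit without the block (adjusted p = 0.0124). Nts exceeded Ntsr2 by 2.19 to 5.05 times within inputs and by 19.9 to 36.1 times within IPs. That these ranges do not overlap follows from Nts lying higher and Ntsr2 lower in all IPs, and is no further result. Astrocyte markers (7 of 7 listed) summed to 76.7 to 134 RPKM in inputs and 57.1 to 104 in IPs, and none was called without the block. Aqp4, the astrocyte water channel, differed by -1.14 on the log2 scale (adjusted p = 0.0616) and, like Ntsr2, was called lower in the blocked fit (adjusted p = 0.0400) and without IP 1 (adjusted p = 0.0210). Gfap, the astrocyte filament protein, differed by -1.07 (adjusted p = 0.0834, and 0.0617 in the blocked fit) and was called lower without IP 1 (adjusted p = 0.00994). Both had all IPs below all inputs. The remaining astrocyte markers were not called in the blocked fit or without IP 1. Aldh1l1 was at 0.30 (adjusted p = 0.517) and higher in IP in all 3 challenges, and S100b was at 0.07 (0.914). Gja1 was at -0.22 (0.681), Slc1a3 at -0.44 (0.547) and Slc1a2 at -0.51 (0.524). The part of astrocyte RNA in the Ntsr2 values was not tested.

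Sortilin, which binds neurotensin and sorts proteins between Golgi, endosomes and the cell surface, varied little between fractions. Sort1 stood at 13.3, 11.6 and 16.5 RPKM in inputs 1, 2 and 3 and at 13.9, 10.2 and 16.2 RPKM in IPs 1, 2 and 3. The IP level was 1.04, 0.875 and 0.980 times the input level in challenges 1, 2 and 3. The log2 fold was -0.05 (SE 0.24, adjusted p = 0.930), and it was 0.12 after median scaling. Among the related receptors, Sorcs3 stood at 4.34, 3.73 and 5.21 RPKM in inputs and at 8.36, 8.85 and 13.1 RPKM in IPs. All of its IPs lay above all inputs, as for 6.85% of all tested entries (log2 fold 1.01, SE 0.24, limma, adjusted p = 0.0492). That call held without IP 1 (adjusted p = 0.0257) and ended without any other 1 library (adjusted p = 0.0983 to 0.199), as well as with no filter (adjusted p = 0.0599), with a pseudocount of 0.1 (adjusted p = 0.0509) or 5 RPKM (adjusted p = 0.0542) and without the variance trend (adjusted p = 0.0528). For Sorl1 the log2 fold was 0.74 (adjusted p = 0.218), for Sorcs2 0.50 (adjusted p = 0.241) and for Sorcs1 0.17 (adjusted p = 0.808).

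**Figure D3:**
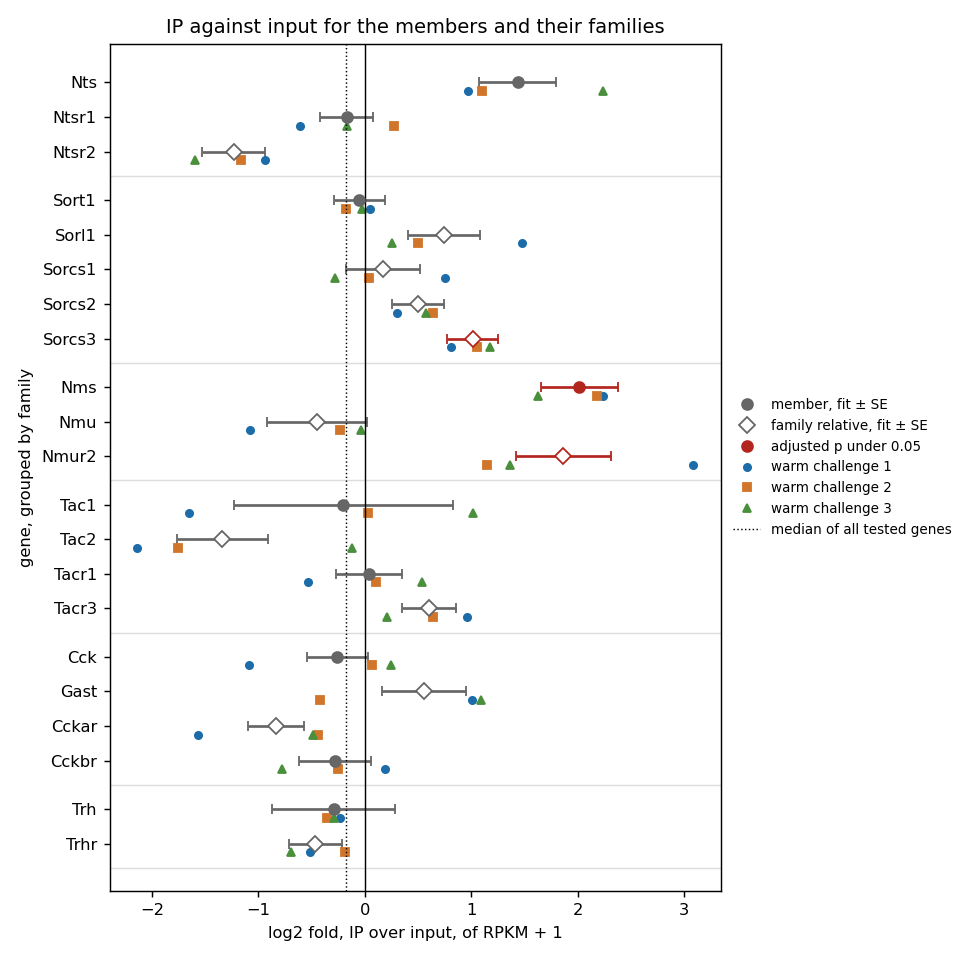
Log2 fold of IP over input (RPKM + 1) for the 9 members (filled circles) and 12 family relatives (open diamonds), each with its SE from limma, and the log2 ratio within each warm challenge below it. Red marks Nms, Nmur2 and Sorcs3, the genes with an adjusted p under 0.05, and the dotted line is the median of all tested entries (-0.18).

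Substance P and neurokinin A come from Tac1, and this gene differed more between challenges than between fractions. Tac1 stood at 18.3, 32.0 and 88.1 RPKM in inputs 1, 2 and 3 and at 5.11, 32.7 and 179 RPKM in IPs 1, 2 and 3. Challenge 3 was highest in both fractions, and the IP level was 0.280, 1.02 and 2.04 times the input level in challenges 1, 2 and 3. The log2 fold was -0.20 with an SE of 1.03, the widest of the 9 (limma, adjusted p = 0.935), and it was 1.02 without IP 1 and -1.42 without IP 3. Tacr1, the receptor of substance P, stood at 6.02, 4.98 and 6.74 RPKM in inputs 1, 2 and 3 and at 3.85, 5.43 and 10.2 RPKM in IPs 1, 2 and 3. As for Tac1, IP 1 was the lowest library and IP 3 the highest, and the groups overlapped (log2 fold 0.04, SE 0.31, adjusted p = 0.966). Of the other tachykinin genes, Tac2, the neurokinin B precursor, was at -1.34 on the log2 scale (adjusted p = 0.101) and was called lower without input 3 (adjusted p = 0.0432). Tacr3, its receptor gene, was at 0.60 (adjusted p = 0.177), with all IPs above all inputs, as for 6.85% of all tested entries. Tac4 and Tacr2 were not listed.

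Medium spiny neurons of the striatum, which lies beside the preoptic region, also express Tac1, and a list of 10 of their genes was added after the values had been seen. The summed level of the 8 listed was 54.9, 68.2 and 263 RPKM in inputs 1, 2 and 3 and 61.7, 133 and 653 RPKM in IPs 1, 2 and 3. Ppp1r1b, the dopamine-regulated phosphatase inhibitor DARPP-32 of these neurons, stood at 7.60, 16.1 and 126 RPKM in the inputs and at 3.23, 42.7 and 376 RPKM in the IPs. Drd1a, a dopamine receptor gene, stood at 2.59, 2.15 and 11.5 RPKM and at 2.01, 2.29 and 20.6 RPKM in the same order. Both libraries of challenge 3 were the highest for all of these, as for Tac1, and Penk reached 661 RPKM in IP 3 against 43.6 to 92.7 RPKM elsewhere. The part of striatal RNA in the Tac1 values was not tested.

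**Figure D4:**
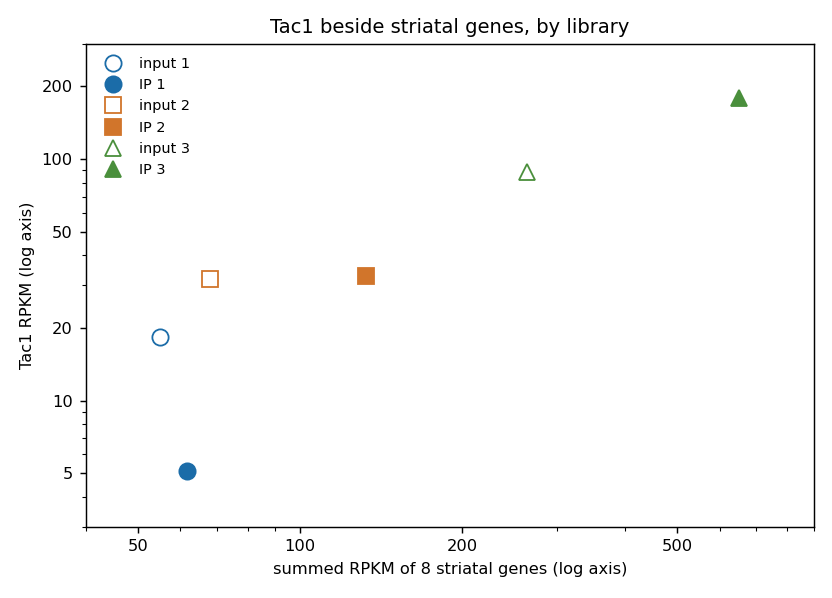
Tac1 RPKM against the summed RPKM of 8 striatal genes in each of the 6 libraries (both axes log, open symbols inputs, filled symbols IPs). Input 3 and IP 3 stand highest on both axes, and IP 1 has the lowest Tac1, 5.11 RPKM, at a striatal sum of 61.7 RPKM.

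Cholecystokinin and its receptor gene showed no difference beyond the spread between libraries. Cck stood at 24.3, 18.6 and 13.0 RPKM in inputs 1, 2 and 3 and at 10.9, 19.4 and 15.6 RPKM in IPs 1, 2 and 3. The lowest value was that of IP 1 and the groups overlapped (log2 fold -0.26, SE 0.29, adjusted p = 0.629). Cckbr, the main cholecystokinin receptor of the brain, stood at 1.87, 1.75 and 1.14 RPKM in inputs and at 2.26, 1.31 and 0.250 RPKM in IPs, so that challenge 3 was lowest in both fractions. Its log2 fold was -0.28 (SE 0.34, adjusted p = 0.657), and it was 0.06 after quantile normalization and 0.10 without IP 3. Cckar, the other receptor gene, had all IPs (1.58 to 2.96 RPKM) below all inputs (3.98 to 6.63 RPKM), as had 23.5% of all tested entries. Its log2 fold (-0.83) did not pass (SE 0.26, limma, adjusted p = 0.0975). For Gast, the gastrin gene, the log2 fold was 0.56 (adjusted p = 0.424).

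Trh, the precursor of the releasing hormone of the thyroid axis, differed between challenges more than between fractions. It stood at 15.9, 13.3 and 3.59 RPKM in inputs 1, 2 and 3 and at 13.4, 10.1 and 2.76 RPKM in IPs 1, 2 and 3. The IP level was 0.840, 0.764 and 0.770 times the input level in challenges 1, 2 and 3, below 1 in each. The log2 fold was -0.29 (SE 0.58), and it did not pass without the block (adjusted p = 0.802) or with it (adjusted p = 0.320). Challenge 3, low for Trh, was also low for Oxt, the oxytocin gene, at 5.71 RPKM in input 3 against 120 and 78.0 in inputs 1 and 2. The receptor gene Trhr had all IPs (1.71 to 3.10 RPKM) below all inputs (3.40 to 4.84 RPKM), as had 23.5% of all tested entries. Its difference of -0.47 on the log2 scale did not pass (SE 0.25, adjusted p = 0.284). Trhr2 was not listed. Trhde, the ectoenzyme that degrades TRH, averaged 4.57 ± 0.699 RPKM over inputs and 6.76 ± 0.323 RPKM over IPs (SD, n = 3 each; log2 fold 0.48, adjusted p = 0.192).

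In input the order of the 9 genes by mean RPKM was Nts, Tac1, Cck, Sort1, Trh, Tacr1, Nms, Cckbr and Ntsr1. Neighbours in this order had overlapping ranges except that Tacr1 lay above Nms, and Nms above Cckbr, in all inputs. In IP the order was Nts, Tac1, Nms, Cck, Sort1, Trh, Tacr1, Cckbr and Ntsr1, and Tacr1 above Cckbr was the only neighbouring pair without overlap. By mean RPKM, Nms thus stood at rank 7 of 9 in input and at rank 3 of 9 in IP, and its place differed between IPs. In IP 1 Nms (26.2 RPKM) lay above Tac1 (5.11 RPKM), and in IP 2 Nms (16.1 RPKM) lay below Cck (19.4 RPKM). In IP 3 Nms (9.34 RPKM) lay below Sort1 (16.2 RPKM), Cck (15.6 RPKM) and Tacr1 (10.2 RPKM).

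Of the 12 listed family relatives of 16 searched, all were tested, 2 were higher (Nmur2 and Sorcs3) and 0 lower. Over all tested entries 0.892% were called higher and 3.29% lower. The median log2 fold of the relatives was 0.34. This median was -0.04 without IP 1. Among 20 genes that process or degrade peptides, 1 was higher and 0 lower, with a median of 0.12. That gene was Pcsk1, a prohormone convertase, which stood at 5.45, 3.24 and 3.92 RPKM in inputs 1, 2 and 3 and at 46.6, 12.6 and 15.1 RPKM in IPs 1, 2 and 3, with IP 1 highest (log2 fold 2.09, SE 0.43, limma, adjusted p = 0.0358). It kept its call without IP 1 (adjusted p = 0.0126) and lost it without any other 1 library (adjusted p = 0.0537 to 0.139). Pcsk2, another convertase, had a log2 fold of 0.86, and its adjusted p = 0.0702 became 0.0497 in the blocked fit. All of its IPs lay above all inputs, as for 6.85% of all tested entries. Qpct, which forms the cyclized glutamine end of neurotensin and TRH, differed by -0.33 on the log2 scale (adjusted p = 0.599), and Nln, a peptidase that cleaves neurotensin, by -0.22 (adjusted p = 0.563).

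Other neuropeptide genes gave the frame for these values. Of 31 searched, 22 were listed and 20 tested, 2 were higher (Adcyap1 and Crh) and 0 lower, against 0.892% and 3.29% of all tested entries. The median log2 fold of these 20 was -0.20. This median was 0.03 without input 1 and 0.99 over the 12 genes that passed a filter of 5 RPKM. With the block 3 were higher and 2 lower. The fold of Nms lay under those of Adcyap1, the PACAP gene (log2 fold 3.18, SE 0.56, adjusted p = 0.0257), and Crh, the corticotropin-releasing hormone gene (2.58, SE 0.30, adjusted p = 0.00664), and the differences between these folds were not tested. Omission of input 2, input 3 or IP 2 ended the Adcyap1 call (adjusted p = 0.0555 to 0.1004), and the Crh call held without any 1 library (adjusted p = 0.00672 to 0.0418).

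The genes most like Nts and Nms over the 6 libraries were taken as those with the smallest root mean square distance of the centred log2(RPKM + 1) values, members excepted. For Nts these were Ier3, an early response gene (distance 0.23), Cd24a, a cell surface glycoprotein (0.29), and Cdkn1a, the cell cycle inhibitor p21 (0.30), against a median of 0.98 over all tested entries. For Nms they were Arhgap36 (0.22), Fos (0.26) and Crem, a cAMP-responsive transcription factor (0.26), against a median of 1.24. Arhgap36 stood at 41.4, 28.2 and 17.1 RPKM in inputs 1, 2 and 3 and at 193, 89.1 and 67.2 RPKM in IPs 1, 2 and 3, with the same order of challenges as Nms. The 6 values per gene share 3 challenges and 2 fractions, so these distances are descriptions without a test.

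**Figure D5:**
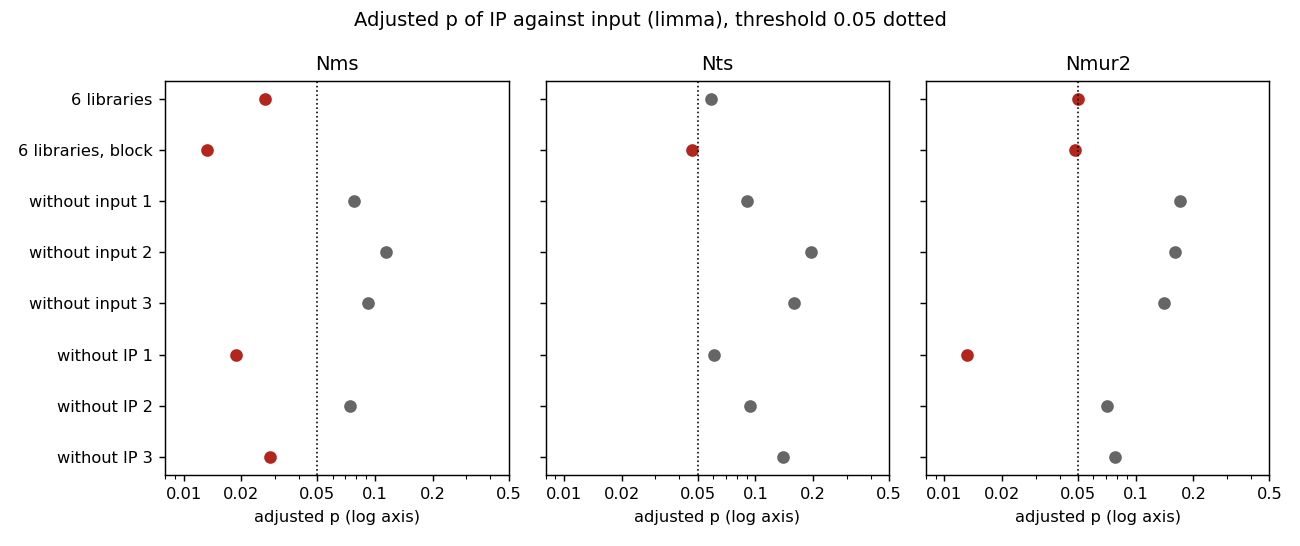
Adjusted p of IP against input (limma, log axis) for Nms, Nts and Nmur2 with all 6 libraries, with the warm challenge as a block, and without each library in turn (no block), with red below the threshold of 0.05 (dotted). Nms passes in 2 of the 6 omissions (without IP 1 and without IP 3), Nmur2 in 1 (without IP 1) and Nts in none.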

How the data were processed

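The authors deposited 1 table of RPKM values on a linear scale, with 1 column per library and no pooling, per the file headers. Per the submitters' processing notes, the genome build is mm9. The aligner, the counter and the annotation used were not given in the sources used here. No listed value is at or below 0.1 RPKM, so entries that fell to that level in any library are missed. The depth is unknown: below 0.6 RPKM at most 17.6% of value pairs matched, to within 1%, ratios of integers no higher than 4, which did not fix it.

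Values were analysed as log2(RPKM + 1), a scale that understates folds of low genes, for entries with at least 1 RPKM in 3 or more libraries. IP was compared with input by limma 3.58.1 (R 4.3.3, mean-variance trend, two-sided, no block), with Benjamini-Hochberg adjustment over all 12328 entries and a threshold of 0.05. Alternatives were pseudocounts of 0.1 and 5, no filter, a filter of 5 RPKM, 2 scalings, 2 variance models, a block and the omission of each library. On simulated data for this comparison the fit over 12328 genes recovered 23% of 2-fold and 76% of 4-fold changes. These changes were placed only in genes above a set mean level. Nms, Ntsr1, Tacr1, Cckbr and Trh lay below it, so recovery at their levels is unknown. Input and IP share the number of a warm challenge in the labels, and of the fits only that with the block paired them. Their deviations from the group means correlated across genes by 0.05, 0.61 and 0.27 for challenges 1, 2 and 3.

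Members and lists were chosen with earlier results of these data known. The text names all members, up to 6 called genes of each of the 4 gene lists (family relatives, peptide processing, suprachiasmatic markers and other neuropeptides) and the 3 genes most like Nts and Nms. Cell type markers are given as counts and sums. Other genes named were chosen after their values were seen. Symbols were matched as listed, and all 9 members stood in the gene name table. Plots used matplotlib 3.10.9.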

Additional observations from a re-analysis of the deposited data

How the results depend on the processing

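Without the block and over 6 libraries, Nms kept its direction and its call under the other pseudocounts, filters, scalings and variance models, and with the replicate block. All Nms inputs lay below 5 RPKM (2.34 to 4.77), so Nms passed the filter of 5 RPKM through its IPs alone. That setting therefore adds no support to its call. The block, which uses the pairing by warm challenge, moved the members called from 1 to 2 (Nts added), the peptide processing genes from 1 to 2 (Pcsk2 added), the suprachiasmatic markers from 1 to 2 (Rgs16 added) and the other neuropeptides from 2 to 5 (Pnoc, Oxt and Gnrh1 added). Ntsr2 was added to the family relatives, and Aqp4 was the 1 astrocyte marker called with the block against 0 without it. All entries called numbered 656 with the block, 217 after median scaling and 253 after quantile normalization, against 516 without any of these. The family relatives called were 1 with a pseudocount of 0.1, a filter of 5 RPKM, median scaling or robust empirical Bayes, and 0 with a pseudocount of 5, no filter or no trend. Leaving out IP 1 raised the entries called to 1693, while leaving out any other 1 library gave 21 to 94. Over all omissions 0 to 1 members, 0 to 3 family relatives, 0 to 2 processing genes, 0 to 1 suprachiasmatic markers and 1 to 3 other neuropeptides were called. Among markers, 3 to 9 genes of recently active neurons, 3 to 7 of oligodendrocytes, 0 to 2 of astrocytes and 0 to 3 of red blood cells were called. Such fits hold fewer samples.

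Folds that were not called changed sign in places, and the cause was not tested. Ntsr1 was 0.0045 after median scaling and 0.157 after quantile normalization, Sort1 was 0.123 and 0.106, and Cckbr was 0.0626 after quantile normalization. Over the omissions the log2 fold ranged from -0.39 to 0.0283 for Ntsr1, -0.19 to 0.12 for Sort1, -1.42 to 1.02 for Tac1, -0.30 to 0.30 for Tacr1, -0.59 to 0.10 for Cckbr, -0.88 to 0.29 for Trh, -0.24 to 0.40 for Sorcs1 and -0.93 to 0.0885 for Nmu. Low recovery of 2-fold changes in the simulated data limits what Nts, Sort1, Tac1 and Cck show without a call. The other members without a call, Ntsr1, Tacr1, Cckbr and Trh, lay below the simulated levels. Recovery there is unknown, which limits what they show as well.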
